A study of Mus musculus with 4 samples.

Results

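The dermal papilla is the cluster of mesenchymal cells at the base of the hair follicle. Its markers were followed here in RNA of dermal cells from C57BL/6 female mice, as *Sox2*, *Sox18*, *Corin*, *Crabp1*, *Trps1*, *Alx4*, *Prdm1* and *Alpl*. The genes were chosen as known markers of that mesenchyme, with earlier results of these data known. Every probe set that the array's annotation gives to them alone was used. These 8 genes, of 18193 named genes on the array, have 11 probe sets of 45101 in all. *Trps1* has 4 probe sets and each of the other 7 genes has 1. Each of 4 conditions had 1 array. Virgin mice given the vehicle dimethyl sulphoxide (DMSO) provided abdominal (ventral) skin, and pregnant mice given DMSO provided abdominal and dorsal skin at 15 days post-coitus (dpc). Abdominal skin also came from 15 dpc mice given PP2, an inhibitor of Src family kinases. The arrays are named virgin, abdominal, dorsal and PP2 for short. All mice were 10 weeks old by the labels and were injected intradermally 2 times a day for 4 days, in the pregnant mice from 12 dpc. The sample titles give 15 dpc for the pregnant groups, while their descriptions give 16 dpc. Cells were released from the scraped skin by collagenases and hyaluronidase after the subcutaneous fat had been cut away, and the protocol describes no step that selects papilla cells. The number of mice behind each array is not stated in the labels or methods.

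Papilla cells send and receive the signals that start and sustain hair growth. During growth the papilla is enclosed by the hair matrix, whose keratinocytes make the shaft, and at rest it lies as a compact ball below the shortened follicle. Wnt, fibroblast growth factor and bone morphogenetic protein ligands, with their secreted antagonists, are the best known of these signals. Each marker is also made by other cells of the skin or body. *Sox2* is known from Merkel cells and from the Schwann cell and melanocyte lineages, *Sox18* from endothelium, and *Prdm1* from sebaceous and differentiating epidermal cells. In RNA of a whole cell suspension, fewer cells of a type cannot be told apart from less RNA per cell.

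Each value is a signal, the intensity that the MAS5 algorithm gives to a probe set, in arbitrary units on a linear scale, with a call of present, marginal or absent. A ratio above 2 with a present call on the brighter array is called here a difference of over 2-fold. A single array per condition leaves every difference without an error and without a test, and precision is limited by how few arrays there are. Between 58.4% and 59.7% of all probe sets were called present on an array. All 9 measured fibroblast markers, *Col1a1* and *Dcn* among them, were present on each of the 4 arrays. Genes of the epidermis were present as well, 6 of 8 on the virgin array and 8 of 8 on the PP2 and dorsal arrays. The ratio of 3′ to 5′ control probe sets is higher where RNA is less intact or less fully copied. *Gapdh* control probe sets at the 3′ end read brighter than those at the 5′ end, by a ratio of 2.51 on the virgin, 1.41 on the abdominal, 5.84 on the PP2 and 2.97 on the dorsal array. For *Actb* the ratio was 2.64, 2.03, 2.70 and 4.14 in the same order, so the abdominal array was lowest by both, and the highest was the PP2 array by one and the dorsal array by the other.

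Of the 8 markers, 7 were detected, and 3 of them stood lowest on the array of abdominal skin from 15 dpc mice. These were *Sox2*, *Trps1* and *Prdm1*, among 6 markers whose brightest probe set was present on all 4 arrays. Of all 11086 genes present on all 4 arrays, 18.7% were lowest on that array. By their brightest probe sets, *Trps1* and *Prdm1* were more than 2-fold lower there than on each of the other 3 arrays, which held for 0.695% of all genes tested. No marker was more than 2-fold higher there than on all of them, which held for 0.83%. *Crabp1* was low on the abdominal and dorsal arrays alike. *Corin* went the other way and was brightest on the abdominal array, whereas *Sox18* spanned less than 2-fold. *Alx4* (1421737_at), a homeodomain factor of limb and skull mesenchyme, was called absent on all 4 arrays, with signals of 88.2 on the virgin, 72.1 on the abdominal, 38.7 on the PP2 and 78.2 on the dorsal array, and is given no fold.

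**Figure D1:**
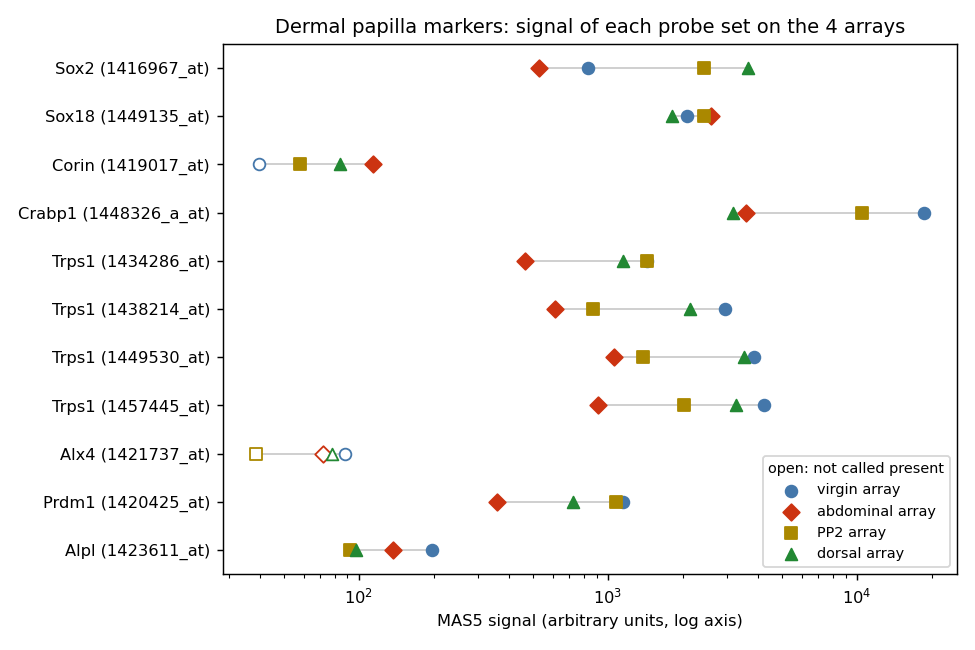
Signal (arbitrary units, log axis) of the 11 probe sets of the markers on the 4 arrays, 1 symbol per array, open where the call was marginal or absent. Red diamonds, the abdominal array, are leftmost for *Sox2*, *Prdm1* and all 4 probe sets of *Trps1* and rightmost for *Corin* and *Sox18*; the virgin and PP2 symbols nearly coincide for *Prdm1* and for the *Trps1* probe set 1434286_at.

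The stretches of 250 bases before the start sites of 4 of these genes are printed to set *Sox2*, *Crabp1* and *Prdm1*, which were dimmer on the abdominal array than on the virgin and PP2 arrays, beside *Corin*, which was brighter. The differences of *Sox2* from the virgin array and of *Corin* from the PP2 array were below 2-fold. The stretches come from RefSeq on GRCm38.p6, whose table matched 5 of the 8 genes. Among these, *Alpl* has 2 stretches, which are not printed. They are written 5′ to 3′ on the gene's strand, with capitals marking the GC box, GGGCGG or its complement. *Sox2* (chr3:34649745-34649994, plus strand) and *Crabp1* (chr9:54764498-54764747, plus strand) are followed by *Prdm1* (chr10:44458749-44458998, minus strand) and *Corin* (chr5:72504541-72504790, minus strand).
Sox2: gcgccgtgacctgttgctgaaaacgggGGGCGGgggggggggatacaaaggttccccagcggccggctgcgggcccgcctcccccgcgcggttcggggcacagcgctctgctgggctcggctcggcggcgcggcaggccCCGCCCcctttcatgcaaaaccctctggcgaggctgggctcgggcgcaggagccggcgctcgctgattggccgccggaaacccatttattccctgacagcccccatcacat
Crabp1: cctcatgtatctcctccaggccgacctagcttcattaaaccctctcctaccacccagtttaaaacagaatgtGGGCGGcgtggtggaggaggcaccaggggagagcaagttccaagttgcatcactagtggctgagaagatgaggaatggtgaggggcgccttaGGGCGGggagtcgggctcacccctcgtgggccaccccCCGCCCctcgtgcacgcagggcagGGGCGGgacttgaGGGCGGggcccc
Prdm1: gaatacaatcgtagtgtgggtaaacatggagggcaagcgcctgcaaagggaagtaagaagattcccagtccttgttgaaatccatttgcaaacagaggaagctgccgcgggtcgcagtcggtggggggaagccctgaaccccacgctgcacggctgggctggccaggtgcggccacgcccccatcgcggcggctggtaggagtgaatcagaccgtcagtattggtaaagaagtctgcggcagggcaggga
Corin: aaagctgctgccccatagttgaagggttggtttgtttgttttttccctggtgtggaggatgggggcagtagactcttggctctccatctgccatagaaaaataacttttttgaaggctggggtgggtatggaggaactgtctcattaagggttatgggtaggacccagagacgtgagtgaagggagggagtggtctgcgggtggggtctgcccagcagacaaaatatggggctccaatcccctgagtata

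The *Sox2* and *Crabp1* stretches hold 2 and 5 GC boxes, while those of *Prdm1* and *Corin* hold 0. Of 32851 such stretches in the table, 32.7% hold at least 1 on either strand. *Sox2* has 27 CpG dinucleotides, *Prdm1* 15, *Crabp1* 12 and *Corin* 2, against a median of 6. The GC content is 72.0% for *Sox2*, 63.6% for *Crabp1*, 59.2% for *Prdm1* and 51.2% for *Corin*, against a median of 52.4%. CTTTG, the core of the site that Wnt-responsive TCF and LEF factors bind, occurs on either strand in 48.6% of the stretches. It occurs 1 time in *Sox2*, 1 time in *Prdm1* and 0 times in the others. CCAAT, found in 33.8%, occurs 1 time in each of *Sox2*, *Prdm1* and *Corin* and 0 times in *Crabp1*. TATAAA, found in 12.4%, occurs in 0 of these 4. None of these matches overlap, and each is a description of the letters only.

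*Trps1*, which encodes a GATA-type zinc-finger repressor that is mutated in a human syndrome of sparse hair, was the marker with most probe sets, and all 4 read lowest on the abdominal array. The brightest, 1457445_at, gave signals of 4249 on the virgin, 909 on the abdominal, 2021 on the PP2 and 3275 on the dorsal array. By it the abdominal array was 4.67-fold lower than the virgin, 2.22-fold lower than the PP2 and 3.60-fold lower than the dorsal array. The virgin and dorsal arrays were thus the bright ones and the PP2 array lay between.

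The other *Trps1* probe sets gave the same low point and spread in size. Probe set 1449530_at read 3876, 1057, 1385 and 3518 on the virgin, abdominal, PP2 and dorsal arrays, and 1438214_at read 2952, 612, 874 and 2134. Probe set 1434286_at read 1441, 466, 1435 and 1152, so that its PP2 signal matched the virgin one. Over all 4 probe sets the abdominal array was 3.09-fold to 4.83-fold lower than the virgin array and 2.47-fold to 3.60-fold lower than the dorsal array. Against the PP2 array the range was 1.31-fold to 3.08-fold, and only 2 of the 4 probe sets passed 2-fold. The mean log2 ratio of abdominal over PP2 was -0.92 ± 0.57 (SD over 4 probe sets, which share their RNA and are not replicates), and those over virgin and dorsal were -2.00 ± 0.31 and -1.67 ± 0.25.

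*Prdm1* (1420425_at), which encodes the transcriptional repressor Blimp1, had signals of 1150 on the virgin, 358 on the abdominal, 1081 on the PP2 and 722 on the dorsal array. The virgin and PP2 arrays were close, the dorsal array lay below them, and the abdominal array was lowest. It was 3.22-fold lower than the virgin array, 3.02-fold lower than the PP2 array and 2.02-fold lower than the dorsal array. The last value sits at the threshold and falls below it when the arrays are scaled to one median of present signals, at a log2 ratio of -0.94. Of the sebaceous gland genes, another known site of *Prdm1*, all 3 measured were within 2-fold between the abdominal and the virgin or PP2 arrays. *Elovl3* and *Scd3*, lipid enzymes of sebocytes, were 4.61-fold and 6.66-fold higher on the abdominal than on the dorsal array, the opposite direction to *Prdm1*. The summed signal of the sebaceous list was 7166, 5655, 6965 and 1122 on the virgin, abdominal, PP2 and dorsal arrays. Of 8 epidermal genes, *Lor*, *Flg* and *Krt2* were 34.8-fold, 14.5-fold and at least 10.8-fold lower on the abdominal than on the dorsal array, the direction of *Prdm1*. None was over 2-fold higher there. Of all genes tested, 4.96% were over 2-fold lower on the abdominal than on the dorsal array and 5.25% higher. Against the virgin and PP2 arrays, 0 and 0 epidermal genes were over 2-fold lower and 0 and 2 higher. Of all genes tested, 3.55% and 3.74% were lower and 3.41% and 4.89% higher. The part of either cell type in the *Prdm1* signal was not tested.

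*Sox2* (1416967_at), an HMG-box transcription factor of the papilla in the larger hair types of the mouse coat, had signals of 832 on the virgin, 527 on the abdominal, 2425 on the PP2 and 3635 on the dorsal array. The arrays fell into a dim and a bright pair. The abdominal array was 4.61-fold lower than the PP2 array, 6.90-fold lower than the dorsal array and 1.58-fold lower than the virgin array. Between the other arrays, the dorsal array was 4.37-fold and the PP2 array 2.92-fold brighter than the virgin array. *Sox2* was the marker with the widest span, and it was the only one of the 7 detected markers that was brightest on the dorsal array.

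Genes of the Schwann cell and melanocyte lineages moved with *Sox2* in part. *Sox10*, the HMG-box factor of both lineages, had signals of 561 on the virgin, 864 on the abdominal, 1720 on the PP2 and 3162 on the dorsal array. It was 3.66-fold lower on the abdominal than on the dorsal array and 1.99-fold lower than on the PP2 array, but 1.54-fold higher than on the virgin array. Its log2 ratio over the PP2 array became -1.10 and passed 2-fold after scaling to one median. *Foxd3*, a neural crest factor, was 2.02-fold lower on the abdominal than on the dorsal array, and its log2 ratio of -0.94 no longer passed with that scaling. *Erbb3*, the neuregulin receptor of Schwann cells, had signals of 1950, 3252, 3679 and 5430 in the order virgin, abdominal, PP2 and dorsal. *Dct* and *Pmel*, genes of pigment synthesis, were 3.81-fold and at least 3.79-fold higher on the abdominal than on the dorsal array. *Tyrp1*, another pigment gene, went the other way and was 1.77-fold lower on the abdominal than on the dorsal array. *Mitf*, a further gene of the list, was 1.49-fold lower. Both are below the 2-fold mark. Of the 8 measured genes of the list, 2 were over 2-fold higher and 2 lower on the abdominal than on the dorsal array. Of all genes tested, 5.25% were higher and 4.96% lower. All 8 were present on the abdominal, 7 on the PP2, 7 on the dorsal and 5 on the virgin array. The summed signal was 31995, 34285, 27448 and 37968 on the virgin, abdominal, PP2 and dorsal arrays. *Mbp*, a myelin gene whose signals of 27387, 26896, 18580 and 25472 make up most of that sum, was within 1.45-fold on the abdominal and each other array. Without it the other 7 genes summed to 4607, 7389, 8868 and 12496, rising from the virgin to the abdominal, PP2 and dorsal arrays. Of the 6 Merkel cell genes, *Atoh1* and *Isl1* were called absent on all 4 arrays. *Piezo2*, a mechanosensitive channel, was present on the PP2 and dorsal arrays only, at signals of 82.6 on the virgin, 87.8 on the abdominal, 108 on the PP2 and 164 on the dorsal array. *Krt8*, a keratin of simple epithelia, read 206, 169, 183 and 269 and was likewise highest on the dorsal array. Its call was absent on the virgin and marginal on the abdominal array. The keratins *Krt20* and *Krt18* were highest on the abdominal array, at least 2.35-fold and 2.03-fold above the dorsal array. The summed signal of the 6 genes was 415, 523, 438 and 575 on the virgin, abdominal, PP2 and dorsal arrays. Genes called present numbered 1, 2, 3 and 3 there, so part of each sum comes from signals without a present call. The part of these cells in the *Sox2* signal was not tested.

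**Figure D2:**
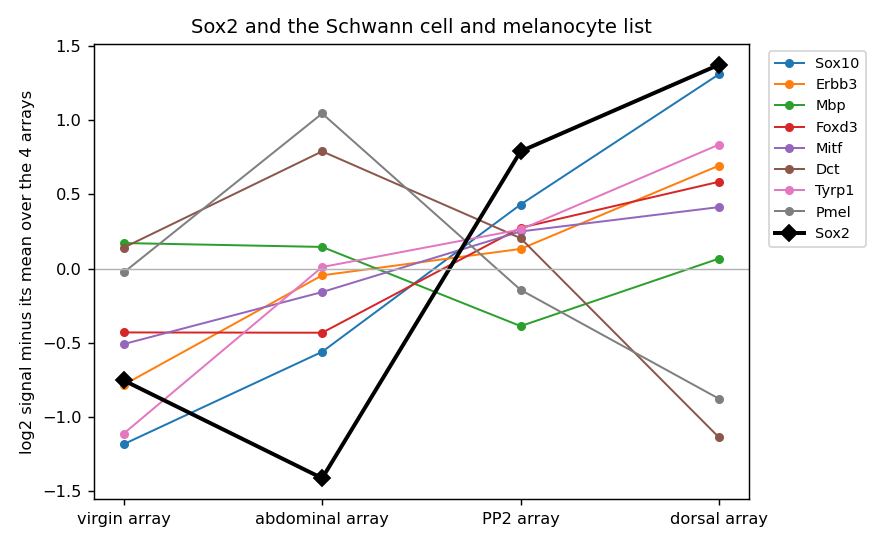
Log2 signal of *Sox2* (black diamonds) and of the 8 measured genes of the Schwann cell and melanocyte list (circles), each minus its own mean over the 4 arrays, with lines joining the values of a gene. *Sox10* follows *Sox2* in being highest on the dorsal array, at signals of 3162 and 3635, but is lowest on the virgin array, where *Sox2* is lowest on the abdominal array.

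*Sox18* (1449135_at), an HMG-box factor of endothelium that is also active in the papilla of the developing coat, had signals of 2075 on the virgin, 2602 on the abdominal, 2433 on the PP2 and 1811 on the dorsal array. These lie within 1.44-fold of each other, and the sign of the difference between the abdominal and PP2 arrays turns when the arrays are scaled to one median (log2 ratio -0.01 in place of 0.10). Endothelial genes also moved little between the abdominal array and the virgin and dorsal arrays. Of 12 measured, all present on each array, 0 differed by over 2-fold between the abdominal and the virgin or dorsal array. Of all genes tested, 3.41% and 5.25% were higher on the abdominal than on the virgin and dorsal arrays, and 3.55% and 4.96% lower. *Pecam1* and *Tie1* were 3.30-fold and 3.72-fold higher on the abdominal than on the PP2 array. The summed signal of the list was 38154 on the virgin, 42049 on the abdominal, 32772 on the PP2 and 33690 on the dorsal array.

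*Crabp1* (1448326_a_at), which encodes a cytosolic carrier of retinoic acid, divided the arrays otherwise. Its signals were 18584 on the virgin, 3586 on the abdominal, 10496 on the PP2 and 3186 on the dorsal array. The virgin and PP2 arrays were bright, and the arrays of both DMSO-injected pregnant skins were dim. The abdominal array was 5.18-fold lower than the virgin array and 2.93-fold lower than the PP2 array, and it was 1.13-fold higher than the dorsal array. The virgin array was 5.83-fold and the PP2 array 3.29-fold brighter than the dorsal array.

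*Corin* (1419017_at), a serine protease that processes the heart's natriuretic peptide and is used to mark the papilla, had signals of 39.8 on the virgin, 114 on the abdominal, 58.0 on the PP2 and 84.4 on the dorsal array, and its call on the virgin array was marginal. It was at least 2.86-fold higher on the abdominal than on the virgin array, 1.96-fold above the PP2 array and 1.35-fold above the dorsal array. With 64 added to every signal, the log2 ratio over the virgin array was 0.78 and no longer passed. Of the genes tested with a mean signal up to 235, *Corin* and *Alpl* among them, 7.31% were over 2-fold higher on the abdominal than on the virgin array, against 1.19% of those from 1420 upwards.

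*Alpl* (1423611_at), the tissue-nonspecific alkaline phosphatase whose activity is stained to find papillae, had signals of 196 on the virgin, 137 on the abdominal, 92.1 on the PP2 and 97.8 on the dorsal array. The abdominal array was 1.43-fold lower than the virgin array and 1.49-fold and 1.41-fold higher than the PP2 and dorsal arrays, all below the 2-fold mark. The virgin array was 2.13-fold brighter than the PP2 array. Of the neutrophil genes, another site of *Alpl*, *S100a8* had signals of 100.2, 68.7, 52.5 and 47.4 on the virgin, abdominal, PP2 and dorsal arrays. *S100a9*, its partner, was present on the dorsal array only and was at least 9.74-fold lower on the abdominal array, while *Mpo* was highest on the PP2 array at 111. *Cxcr2* was called present on 0 arrays. The summed signal of the 4 genes measured was 210.1, 154, 185 and 213 in the same order. Those called present numbered 1, 1, 2 and 3, so part of each sum comes from signals without a present call.

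Pregnancy, PP2 and skin site were thus each set against the same abdominal array, and the 3 comparisons share it. By the brightest probe set of each gene, 3 of the 7 detected markers (*Crabp1*, *Trps1* and *Prdm1*) were over 2-fold lower on the abdominal than on the virgin array, where 3.55% of all genes tested were, and 1 (*Corin*) was higher, where 3.41% were. Against the PP2 array, 4 of 7 (*Sox2*, *Crabp1*, *Trps1* and *Prdm1*) were lower and 0 higher, with 3.74% and 4.89% of all genes. The part of the 3′ to 5′ ratios, lowest on the abdominal array, in any of the 3 comparisons was not tested. Against the dorsal array, 3 of 7 (*Sox2*, *Trps1* and *Prdm1*) were lower and 0 higher, with 4.96% and 5.25% of all genes. The median log2 ratio of the markers was -0.66 over the virgin, -1.15 over the PP2 and 0.17 over the dorsal array, while that of all genes tested was 0.02, 0.00 and 0.04. In the comparison with the dorsal array, the median and the count of lower markers thus differ in direction. Of the 10 detected probe sets, 6 were over 2-fold lower than on the virgin array, 5 lower than on PP2 and 6 lower than on the dorsal array, where 4.09%, 3.39% and 5.76% of all probe sets were. The numbers higher were 1, 0 and 0, where 3.48%, 7.89% and 5.51% of all probe sets were. The 4 of *Trps1* are among these and share a transcript.

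**Figure D3:**
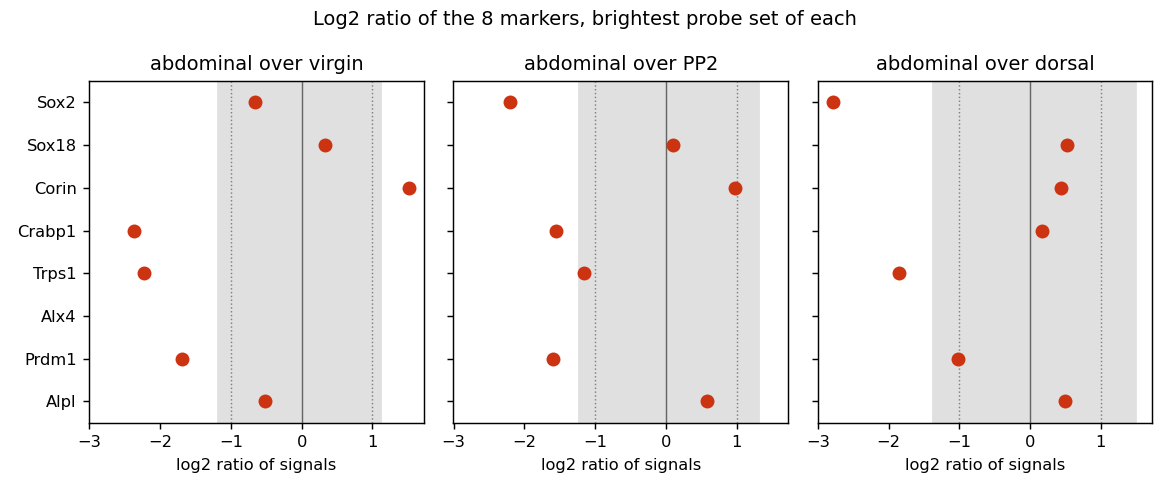
Log2 ratio of the signals of the 8 markers on the abdominal array over virgin (left panel), PP2 (middle panel) and dorsal (right panel), by the brightest probe set of each gene. Grey bands span the central 95% of all genes tested, dotted lines mark 2-fold, and *Alx4*, present on 0 arrays, has no point. *Trps1* lies left of the band in the left and right panels, at -2.22 and -1.85, and *Sox2* in the middle and right panels, at -2.20 and -2.79. *Crabp1* (-2.37 and -1.55) and *Prdm1* (-1.69 and -1.60) lie left of it in the left and middle panels. *Corin* lies right of it in the left panel, at 1.51.

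A further 31 genes of the papilla, listed for their known roles there, were read alongside the markers. Like the markers, they were chosen with earlier results of these data known, so the list is not independent support. The array gave 30 of them a probe set of their own, and 29 were detected, all but the bone morphogenetic protein antagonist *Nog*. Of these 29, 12 were over 2-fold lower on the abdominal than on the virgin array, 13 were lower than on PP2 and 10 lower than on dorsal. Of all genes tested, 3.55%, 3.74% and 4.96% were. The numbers higher were 0, 0 and 1, the last being *Wnt5a*, where 3.41%, 4.89% and 5.25% of all genes were. The same shares of all genes apply to the counts by role and by list below. The median log2 ratio of the list was -0.78 over the virgin, -0.92 over the PP2 and -0.32 over the dorsal array.

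Among the 11 secreted signals, 5 were lower than on virgin, 4 lower than on PP2 and 3 lower than on dorsal. *Rspo2*, an R-spondin that strengthens Wnt signalling, had signals of 327 on the virgin, 34.6 on the abdominal, 263 on the PP2 and 157 on the dorsal array. It was called absent on the abdominal array and read lower there by at least 9.43-fold, 7.58-fold and 4.52-fold. *Fgf7*, a fibroblast growth factor for keratinocytes, had signals of 1905, 648, 2319 and 1815 in the same order and was 2.94-fold, 3.58-fold and 2.80-fold lower on the abdominal array. Both were lowest on the abdominal array and next lowest on the dorsal array.

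Of the 7 secreted antagonists, 3 were lower than on virgin, 3 lower than on PP2 and 1 lower than on dorsal. *Dkk2*, a Wnt antagonist, had signals of 10848 on the virgin, 3534 on the abdominal, 9102 on the PP2 and 7085 on the dorsal array and was 3.07-fold, 2.58-fold and 2.01-fold lower on the abdominal array. The last of these falls below 2-fold with the arrays scaled to one median, at a log2 ratio of -0.93, which leaves 0 antagonists lower than on dorsal. *Notum*, which inactivates Wnt ligands, read 1132, 356, 869 and 286, so that it was low on both DMSO-injected pregnant arrays, as *Crabp1* was. *Hhip*, a Hedgehog antagonist, was 4.95-fold and 2.89-fold lower than on the virgin and PP2 arrays and 1.66-fold lower than on the dorsal array. The antagonists *Wif1*, *Sostdc1* and *Frzb* differed by less than 2-fold in each comparison.

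Of the 6 other transcription factors of the papilla, 2 were lower than on the virgin, 3 than on the PP2 and 2 than on the dorsal array. *Twist1*, a mesenchymal basic helix-loop-helix factor, had signals of 2948 on the virgin, 1021 on the abdominal, 2794 on the PP2 and 2610 on the dorsal array and was 2.89-fold, 2.74-fold and 2.56-fold lower on the abdominal array. *Lef1*, the Wnt-responsive factor, was 2.80-fold and 2.50-fold lower than on the PP2 and dorsal arrays and 1.98-fold lower than on the virgin array. Of the 6 matrix and surface genes, 2 were lower than on virgin, 3 lower than on PP2 and 4 lower than on dorsal, and 0 were higher. Scaled to one median, 1 in place of 4 was lower than on dorsal, as *Ncam1*, *Prom1* and *Cxcr4* had log2 ratios of -0.97, -0.98 and -0.98. *Spon1*, which encodes the matrix protein F-spondin, had signals of 2282, 1923, 4304 and 4955 on the virgin, abdominal, PP2 and dorsal arrays, which is the order of *Sox2*. *Ptch1*, the Hedgehog receptor, was within 1.08-fold on the abdominal and each other array.

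**Figure D4:**
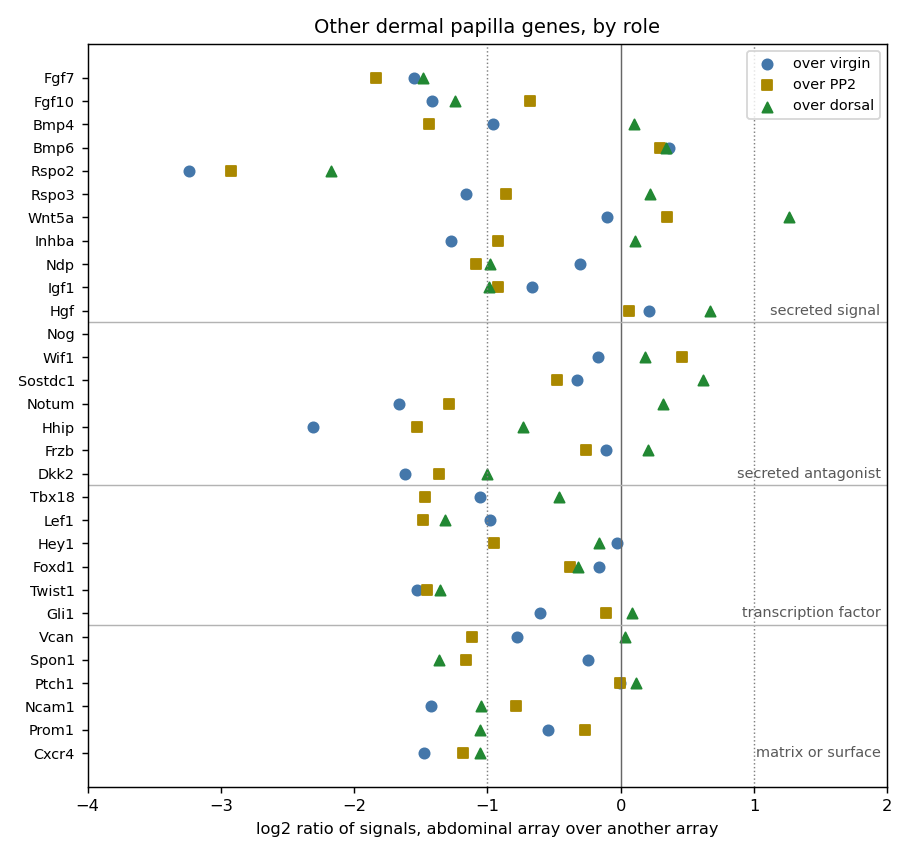
Log2 ratio of signals of 30 other dermal papilla genes on the abdominal array over the virgin (circles), PP2 (squares) and dorsal (triangles) arrays, grouped by role, with dotted lines at 2-fold and no point for *Nog*, which was not detected. *Rspo2* lies leftmost among detected genes, at -3.24, -2.92 and -2.18, and *Wnt5a* is the only one right of 2-fold, at 1.26 over the dorsal array.

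The list of other papilla genes had a negative median log2 ratio in all 3 comparisons. The markers did not, with medians of -0.66, -1.15 and 0.17 over the virgin, PP2 and dorsal arrays. No marker list of other cells did either, and these are values without a test. Over the dorsal array, however, the epidermal list and the Schwann cell and melanocyte list had median log2 ratios of -0.82 and -0.66. Both lie below the -0.32 of the other papilla genes. Over the virgin and PP2 arrays the medians were 0.38 and 0.65 for the epidermal list and 0.64 and -0.22 for the Schwann cell and melanocyte list. Genes of the hair matrix, the shaft and the inner root sheath, the epithelium of the lower follicle, were together brightest on the abdominal array. Of 13 measured, 10, 8 and 8 exceeded virgin, PP2 and dorsal by over 2-fold and 0 were lower, with median log2 ratios of at least 4.56, 2.38 and 3.35, since many of these genes had no present call on the dimmer array. *Dlx3* was called present on 0 arrays, and the summed signal of the list was 2333 on the virgin, 17017 on the abdominal, 4123 on the PP2 and 3047 on the dorsal array. Of the 9 fibroblast genes, 2, 0 and 3 were higher and 0, 1 and 0 lower, with medians of -0.34, 0.23 and 0.33. *Col1a1*, a type I collagen gene, was 2.38-fold and 3.45-fold higher on the abdominal than on the virgin and dorsal arrays, and *Pdgfra*, a receptor of fibroblasts, was 2.50-fold lower than on the PP2 array. The summed signal of the fibroblast list was 151608, 136574, 119648 and 118248 on the virgin, abdominal, PP2 and dorsal arrays.

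Epidermal genes were lower on the abdominal than on the dorsal array in 3 of 8 cases (*Lor*, *Flg* and *Krt2*), and 2, *Krt1* and *Krt5*, were higher than on the PP2 array, of which *Krt5* no longer passed with one median (log2 ratio 0.96). Their summed signal was 51484, 65511, 37483 and 91685 on the virgin, abdominal, PP2 and dorsal arrays. Of the 6 milk protein and mammary genes, 5 were called present on 0 arrays. *Csn2*, a casein, was called present on the 3 arrays of pregnant skin at signals of 50.2, 37.7 and 105 on the abdominal, PP2 and dorsal arrays. The part of any of these cells in the marker signals was not tested.

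**Figure D5:**
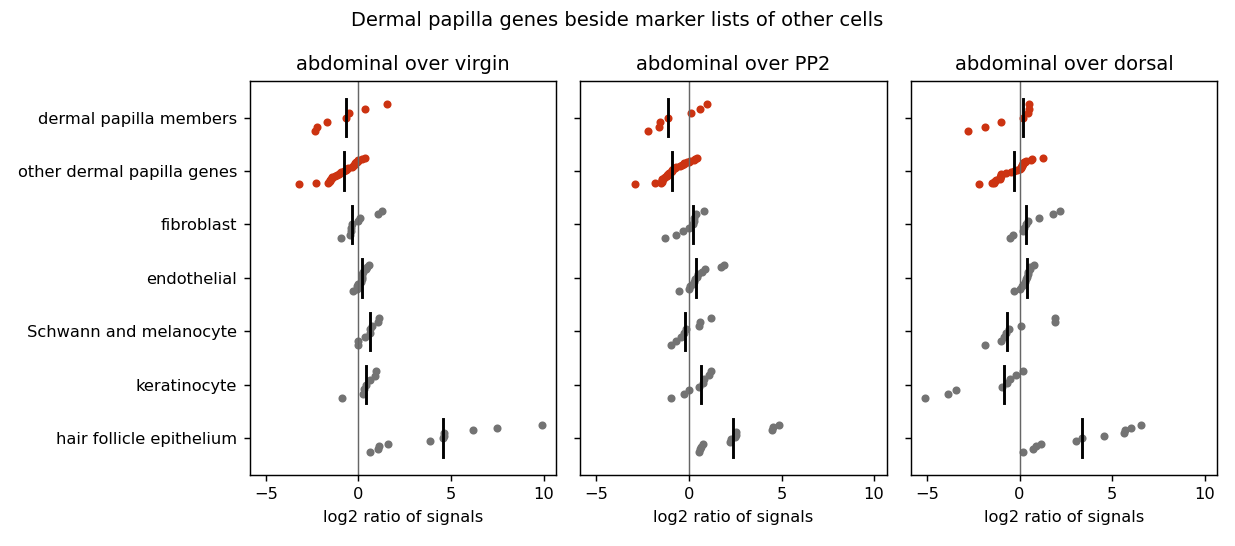
Log2 ratio of signals on the abdominal array over virgin (left panel), PP2 (middle panel) and dorsal (right panel), 1 point per gene present on either array, for the papilla markers and other papilla genes (red) and for lists of other cells (grey), with black bars at the medians. The median of the hair follicle list lies at 4.56, 2.38 and 3.35, which are lower bounds. That of the other papilla genes lies at -0.78, -0.92 and -0.32, and that of the markers at -0.66, -1.15 and 0.17.

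The patterns of the markers over the 4 arrays differed among themselves. After centring each gene's log2 signals on their mean, the root mean square difference between *Sox18* and *Alpl* was 0.47 and that between *Trps1* and *Prdm1* 0.49. The nearest marker to *Sox2* and to *Crabp1* was *Prdm1*, at 1.01 and 0.67. Among the 11086 genes present on all 4 arrays, those nearest to *Prdm1* were *Drd1*, *Fap* and *Dkk2*, at 0.08 to 0.09. *Fap* encodes a protease of fibroblasts. Those nearest to *Trps1* were *Larp6*, *Prg4* and *Bank1* (0.08 to 0.14), to *Sox2* *Map7d2*, *Sema4f* and *Ntm* (0.08 to 0.23), and to *Crabp1* *Slc26a7*, *Ptger3* and *Abcd2* (0.11 to 0.20). *Ptger3*, a prostaglandin E2 receptor, had signals of 1986 on the virgin, 361 on the abdominal, 1329 on the PP2 and 426 on the dorsal array. The genes nearest to *Corin* were *Gpr160*, *4921507G05Rik* and *Cnksr1* (0.08 to 0.12), and to *Alpl* *H2-DMa*, *Trmt61a* and *Pcyt2* (0.06 to 0.08). With 4 values per gene many genes lie close by, and likeness here describes these arrays only.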

How the data were processed

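The authors deposited, for each of 4 arrays hybridised with dermal RNA, a MAS5 signal (a linear intensity) and a detection call for 45101 probe sets, made with Affymetrix Expression Console (the submitters' processing notes name version 1). Each array is scaled to a trimmed mean, and signals were used as deposited. Gene names came from the platform's annotation, in which 34945 probe sets had 1 gene. No columns lacked a sample.

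A gene was read by its brightest probe set (mean log2 signal over the arrays) and was tested where it was present on at least 1 of the arrays compared. Folds against an array without a present call were taken against the higher of the signal there and the lowest present signal of that array, and are written as at least that fold. No p-value was computed. The rule was run on data simulated from the abdominal array with known folds added. Such data cannot show how often 2-fold differences arise between real single arrays. Python 3.11.15, numpy 2.4.6 and pandas 2.3.3 were used.

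The markers and lists were chosen with earlier results of these data known. Named were all marker probe sets, for each list and comparison genes from the 4 detected ones of largest absolute log2 ratio, and the 3 genes nearest in pattern to each marker present on at least 3 arrays that spanned over 2-fold. Other list genes were named after their values were seen. Alternatives were scaling to one median of present signals, quantile normalization, 64 added to every signal, thresholds of 1.5-fold and 3-fold, no detection filter, any probe set, the mean over probe sets and, chosen after seeing the data, leaving out an array, and *Mbp* from the summed signal of its list.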

Additional observations from a re-analysis of the deposited data

How the results depend on the processing

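Of 66 recomputed log2 ratios of the 7 detected markers, leaving out settings that could not change a value, 61 kept their direction and their side of 2-fold, 4 no longer passed and 0 reversed among those that passed. The 4 were *Corin* over the virgin array with 64 added (0.78), *Trps1* over the PP2 array by the mean of its probe sets (-0.92), and *Prdm1* over the dorsal array with one median (-0.94) and with 64 added (-0.90). The other was a difference under 2-fold whose sign turned, *Sox18* over the PP2 array with one median (-0.01). The table of all arrays holds the same signals and gave the same ratios. At 3-fold, 2 markers were lower than on the PP2 array in place of 4, and 0 were higher than on the virgin array, as also with 64 added. At 1.5-fold, 1 marker was higher than on the PP2 array. Markers lower than on all 3 other arrays numbered 1 in place of 2 with one median or with 64 added, and 0 at 3-fold. Leaving out the virgin or the dorsal array gave 3, and leaving out the PP2 array gave 2. Of the other papilla genes, 6 in place of 10 were lower than on the dorsal array with one median and with 64 added. At 3-fold, 4 were lower than on the virgin array, 2 than on PP2 and 1 than on dorsal. By any probe set, 1 exceeded 2-fold upwards over PP2 and 2 over dorsal. Against the dorsal array, 3 were higher at 1.5-fold and 0 at 3-fold. Of the Schwann cell and melanocyte genes, 1 in place of 2 was lower than on dorsal with one median, quantile normalization or 64 added. With one median, the middle log2 ratio of probe sets present on both the abdominal and PP2 arrays went from 0.05 to -0.06. No paired analysis was possible because each condition had 1 array. Signals without a present call limited the reading of *Corin* on the virgin array and of *Alx4* on all 4.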
